A study of Mus musculus with 6 samples.

Results

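The genes described here are 48 that copy the genome in S phase: the origin recognition complex, the licensing factors, the MCM helicase and the proteins that switch it on, the replicative polymerases, the sliding clamp and its loader, the single-strand binding complex RPA, the enzymes that finish Okazaki fragments, and enzymes that supply deoxynucleotides. They were taken by gene symbol from a table of 25124 symbols, and all 48 were among the 11257 genes tested. They were measured in RAW264.7, a mouse macrophage-like cell line. There were 3 libraries labelled E4BP4 knockout and 3 labelled Control, from untreated cells, and both groups were the same line. E4BP4 is the bZIP transcription factor encoded by Nfil3. The sources used here do not give the method of the knockout, whether the line was 1 clone, or whether the libraries of a group were separate cultures, so each p-value measures only the spread between these libraries. Levels are in TPM, which divides a transcript's reads by its length and then scales each library to one total.

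Nfil3 itself went against the label. It had 104.6, 104.0 and 99.8 TPM in the libraries labelled knockout, against 29.5, 29.9 and 31.0 TPM in the control libraries, which is 3.41-fold higher (log2 fold change 1.74, limma adjusted p = 4.96e-09). The reads are summed over the transcript, so they do not show whether the protein is made. The groups are therefore called "labelled knockout" and "control" throughout, and no direction below can be tied to loss of the protein. The libraries held 18373116 to 19867737 recovered reads in the labelled knockout group and 15615661 to 18110568 in control, and libraries of a group correlated with each other at r = 0.994 to 0.996 over the tested genes. All 10 macrophage markers passed the filter on low values, with summed TPM of 4179 to 4324 in labelled knockout and 3010 to 3237 in control libraries. The list moved in both directions: 3 rose (Lyz2, Cd14 and Spi1), 5 fell (Csf1r, Fcgr1, Cd68, Itgam and Adgre1) and 2 did not pass, with a median log2 fold change of -0.05. The higher sum lay mostly in Lyz2, with a mean of 2218 TPM in labelled knockout and 1069 TPM in control libraries, while Csf1r averaged 159.2 TPM in labelled knockout and 248.4 TPM in control libraries. The part of these differences in the members' values was not tested. Of the 10, Adgre1, which encodes the macrophage antigen F4/80, was low in both, at 1.31 to 1.76 TPM in labelled knockout and 2.15 to 3.08 TPM in control libraries. Of 7 T cell markers, Cd3g and Cd2 were listed at 0 and Lck was the only one tested, with 3.97 to 4.19 TPM in labelled knockout and 2.50 to 2.59 TPM in control libraries; no marker of B cells, fibroblasts or epithelium exceeded 0.922 TPM in any library.

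Replication starts at origins, where the origin recognition complex, with Cdc6 and Cdt1, loads the ring of Mcm2 to Mcm7 around DNA in G1. Kinases and the proteins Cdc45 and GINS turn each ring into an active helicase in S phase, and polymerase alpha with primase starts new strands that polymerases delta and epsilon extend, held to DNA by the clamp PCNA. Most of these genes are known targets of the E2F transcription factors, which switch them on together as cells leave G1, and ribonucleotide reductase is switched on with them to make the deoxynucleotides.

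The letters of an E2F site stood in the promoters of members that rose and of members that fell alike. A promoter window of 300 bases, 250 before to 50 after the start, was given by RefSeq (GRCm38.p6) for 40 of the 48 members. Where a member had more than 1 window, 1 was used. The start was that of the listed transcript for all but Cdc6, where it lay 350 bases away. The letters TTTGGCGC, TTTCCCGC, TTTGCCGC or TTTCGCGC, on either strand, stood in 15 of the 40 (37.5%), compared with 4.25% of 11135 windows of tested genes and 2.26% of all 32851 windows. They were present for 6 of 12 members with a window that were higher in labelled knockout libraries, 5 of 14 that were lower, and 4 of 14 that passed in neither direction. The runs of 30 bases printed here show 3 higher members and then 3 lower ones, because both directions carry the same letters. Each is written 5′ to 3′ on the gene's strand, with the E2F letters in capitals.
Mcm3: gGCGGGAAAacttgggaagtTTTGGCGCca
Pold3: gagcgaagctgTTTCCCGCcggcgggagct
Cdt1: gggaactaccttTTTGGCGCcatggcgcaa
Mcm6: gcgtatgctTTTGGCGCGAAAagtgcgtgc
Cdc6: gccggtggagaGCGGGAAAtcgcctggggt
Rfc3: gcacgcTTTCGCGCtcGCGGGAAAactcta
These lie at chr1:20820265-20820294 for Mcm3 (minus strand), chr7:100121467-100121496 for Pold3 (minus), chr8:122568035-122568064 for Cdt1 (plus), chr1:128359795-128359824 for Mcm6 (minus), chr11:98908002-98908031 for Cdc6 (plus) and chr5:151651195-151651224 for Rfc3 (minus). In Mcm3 and Rfc3 the capitals mark 2 matches, and in Mcm6 they mark 2 that overlap and read in opposite directions. The D-box letters TTATGTAA or TTACGTAA, the form of site that E4BP4 is known to bind, stood in 0 of the 40 windows, compared with 0.629% of windows of tested genes. CCAAT, the letters bound by the factor NF-Y, stood in 22 of 40 windows (55%), compared with 38.1% of windows of tested genes. The cell cycle letters TTTGAA or TTCGAA, called CHR, stood in 7 of 40 (17.5%), compared with 14.1% of windows of tested genes. These motifs were counted separately and may overlap.

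The replication genes did not move as 1 block. Of the 48, 14 rose and 17 fell in the labelled knockout libraries, and 17 did not pass the test (limma on log2(TPM + 1), Benjamini-Hochberg adjusted p under 0.05 over all tested genes, two-sided). That is 29.2% higher and 35.4% lower, where 26.7% of all tested genes were called higher and 23.4% lower, so calls in either direction made up 64.6% of the members and 50.1% of all tested genes. All tested genes include ones of lower TPM than any member. With a filter of at least 5 TPM in at least 3 libraries, 2716 of 9075 genes were called higher and 2319 lower. The member counts stayed at 14 and 17. The median log2 fold change was -0.003 over the members and 0.017 over all tested genes, and the median size of the change was 0.15 on the log2 scale for members and 0.17 for all tested genes. Members that rose had 1.08 to 1.45 times the control TPM and members that fell had 0.812 to 0.916 times. No member changed by a log2 value of 1 or more, a size that 255 tested genes reached. The 3 TPM values of a group did not overlap those of the other group for 35 members, that is 72.9% of members and 58.5% of all tested genes. Of these members 16 were higher and 19 lower, where 31.3% of all tested genes were higher and 27.2% lower without overlap. Fold changes are on the log2(TPM + 1) scale, which slightly understates those of genes with low TPM.

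**Figure D1:**
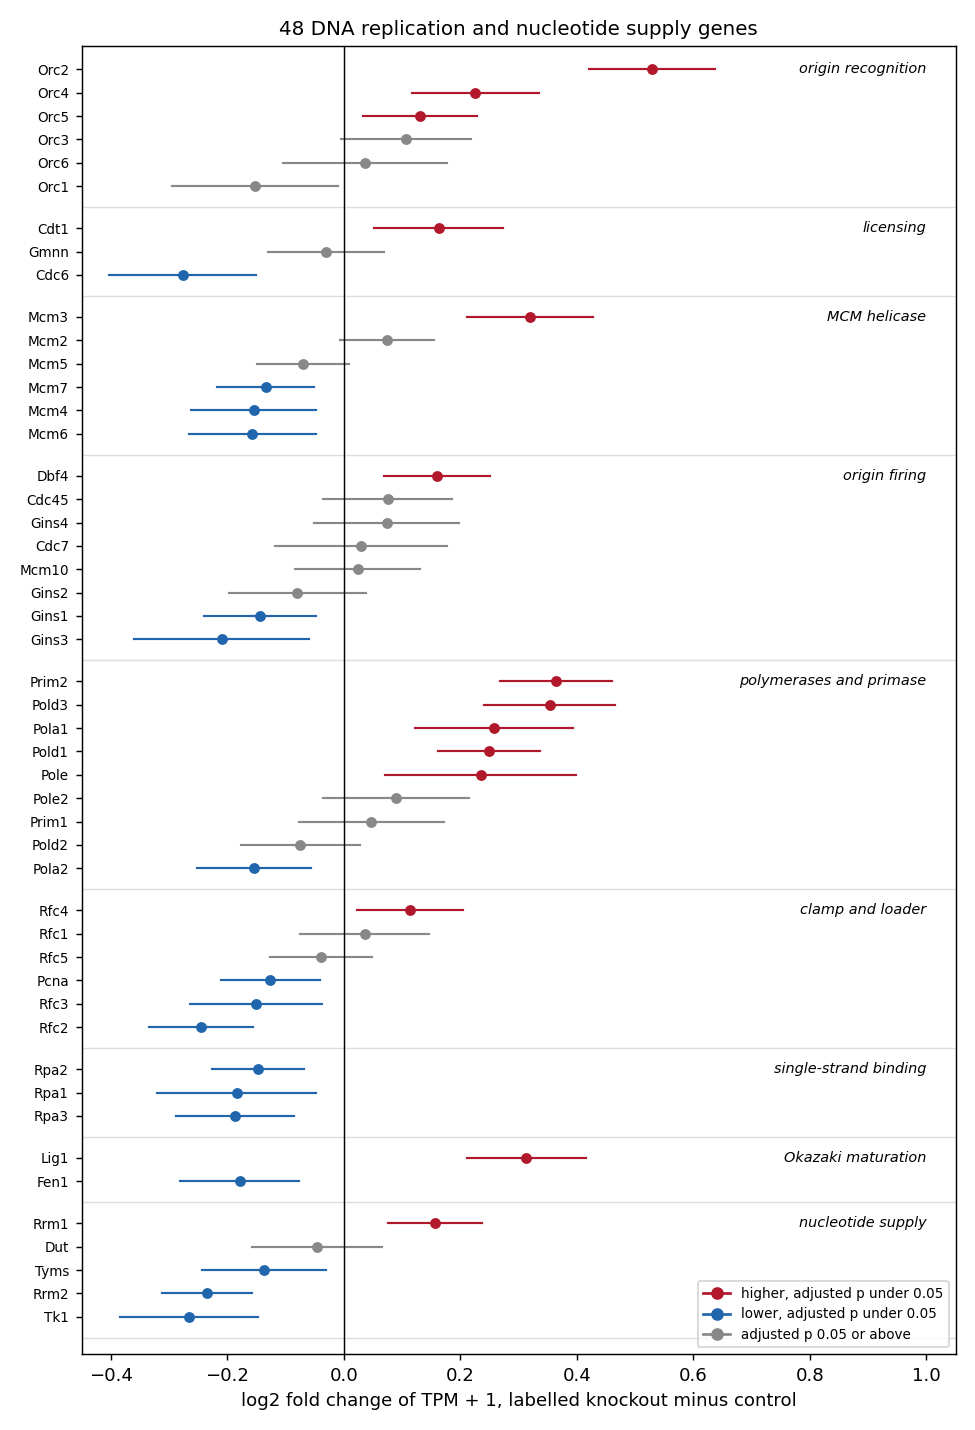
Log2 fold change of TPM + 1 (horizontal axis, labelled knockout minus control) for each of the 48 genes, in rows grouped by role; points are limma estimates, bars 95% confidence intervals, n = 3 libraries a group. Red points passed the adjusted p threshold as higher (14), blue as lower (17) and grey did not pass (17), and most roles hold more than 1 colour.

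The origin recognition complex, which marks the sites where replication can begin, had 3 of its 6 subunits rise and none fall, and 2 rose and none fell once each gene was set against its neighbours on the chromosome (neighbourhood centring, described further on). Counts by role, here and below, describe 2 to 9 genes each. Over all tested genes 26.7% were called higher and 23.4% lower. With neighbourhood centring these shares were 23.2% and 23.4%. Orc2 had the largest rise of all 48 members. It had 57.7, 55.1 and 55.5 TPM in labelled knockout libraries, against 37.0, 41.2 and 37.7 TPM in control libraries, a mean of 56.1 ± 1.38 against 38.6 ± 2.23 TPM (SD, n = 3 each). The log2 fold change was 0.53 (SE 0.0479, limma adjusted p = 1.80e-05). All 3 labelled knockout libraries lay above all 3 control libraries. Orc4 rose to 18.8 ± 0.751 TPM, against 16.0 ± 0.394 TPM in control (log2 fold change 0.23, limma adjusted p = 0.00370), and Orc5 rose to 25.6 ± 0.743 TPM, against 23.3 ± 0.521 TPM (0.13, limma adjusted p = 0.0312).

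Orc1, Orc3 and Orc6 did not pass the test. Orc1, the ATPase subunit that is known to come and go with the cell cycle, had 7.67, 6.89 and 7.02 TPM in labelled knockout libraries, against 7.83, 8.53 and 7.94 TPM in control. Its groups did not overlap, with the labelled knockout libraries lower, but its log2 fold change of -0.15 had a limma adjusted p of 0.0717; under other scalings of the libraries it passed as lower (-0.17 with upper-quartile scaling, Orc1 adjusted p = 0.0358). Orc3 had a log2 fold change of 0.11 and Orc6 of 0.04, with 95% intervals of -0.01 to 0.22 and -0.10 to 0.18.

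Of the 2 factors that help the origin complex load MCM rings, 1 rose and 1 fell. Cdc6 had the largest fall of all members, with 11.7, 10.9 and 11.02 TPM in labelled knockout libraries, against 12.9, 14.1 and 14.2 TPM in control (log2 fold change -0.28, SE 0.0564, limma adjusted p = 0.00273), and its groups did not overlap. Cdt1 had 76.2, 74.6 and 82.7 TPM in labelled knockout libraries, against 66.7, 69.1 and 72.4 TPM in control (log2 fold change 0.16, limma adjusted p = 0.0207), again with no overlap and in the other direction. Gmnn, which encodes geminin, the protein that binds and blocks Cdt1, did not pass: it had 91.2, 98.7 and 89.8 TPM in labelled knockout libraries and 97.8, 94.3 and 93.3 TPM in control libraries (log2 fold change -0.03, 95% interval -0.13 to 0.07), and the groups overlapped. The ratio of Cdt1 to Gmnn TPM was 0.836, 0.755 and 0.921 in labelled knockout libraries, against 0.681, 0.733 and 0.776 in control libraries. It averaged 0.838 ± 0.0829 against 0.730 ± 0.0472 (SD, n = 3 each), and the groups overlapped (exact permutation test, two-sided, p = 0.2; 3 libraries against 3 cannot go below 0.1).

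The helicase ring holds 1 copy of each of Mcm2 to Mcm7, and its transcripts moved in opposite directions. Mcm3 rose while Mcm4, Mcm6 and Mcm7 fell, and Mcm2 and Mcm5 did not pass. With neighbourhood centring Mcm4 and Mcm6 were still lower, and Mcm3 and Mcm7 no longer passed. Mcm3 had 180.5, 180.6 and 183.8 TPM in labelled knockout libraries, against 134.5, 151.1 and 151.1 TPM in control libraries (181.6 ± 1.90 against 145.6 ± 9.60, SD, n = 3 each), a log2 fold change of 0.32 (limma adjusted p = 0.000459). Mcm6, the most abundant of the 6, had 186.6, 185.0 and 194.7 TPM in labelled knockout libraries, against 196.2, 222.2 and 214.0 TPM in control (log2 fold change -0.16, limma adjusted p = 0.0227). For both genes the groups did not overlap, with Mcm3 high and Mcm6 low in the labelled knockout libraries.

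Mcm4 fell to 48.5 ± 1.19 TPM, against 54.2 ± 3.06 TPM in control (log2 fold change -0.15, limma adjusted p = 0.0225), and Mcm7 fell to 90.2 ± 2.46 TPM, against 99.1 ± 2.23 TPM (-0.13, limma adjusted p = 0.0139). Mcm2 had 162.8 ± 2.82 TPM in labelled knockout and 154.6 ± 4.56 TPM in control libraries (log2 fold change 0.07, limma adjusted p = 0.117). Mcm5 had 133.4 ± 2.33 TPM in labelled knockout and 140.1 ± 3.47 TPM in control libraries (-0.07, limma adjusted p = 0.127). For these 4 subunits, too, the 3 values of each group did not overlap, although only Mcm4 and Mcm7 passed.

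**Figure D2:**
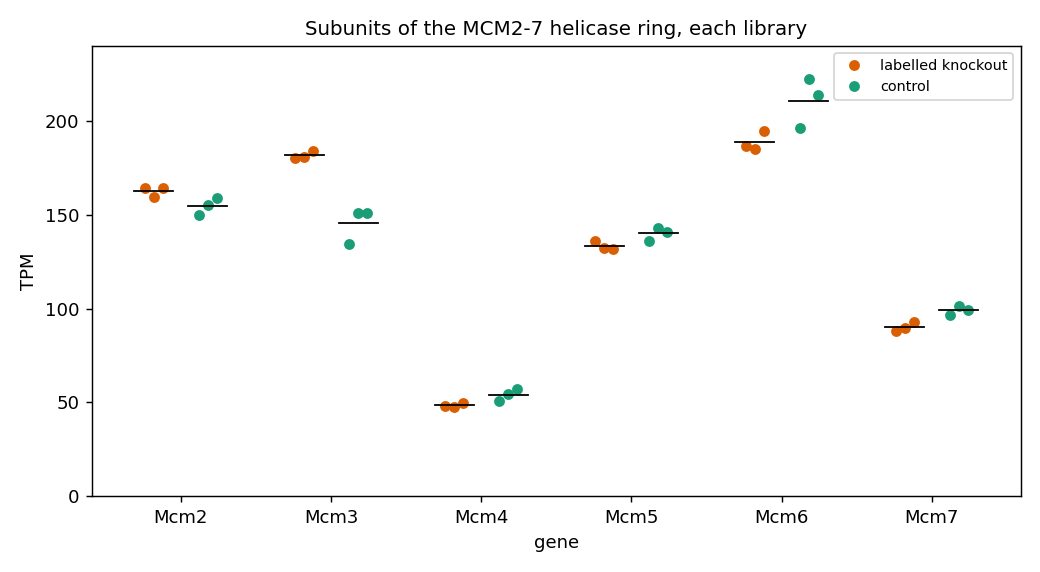
TPM (vertical axis, from 0) of the 6 helicase ring genes in each library; points are libraries, labelled knockout left of control for each gene, and lines are group means (n = 3). Mcm3 sits at 180.5 to 183.8 TPM in labelled knockout and 134.5 to 151.1 TPM in control libraries, and Mcm6 at 185.0 to 194.7 and 196.2 to 222.2 TPM in the same order.

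The summed TPM of the 6 ring genes overlapped between groups, at 803.3, 795.0 and 817.5 in labelled knockout libraries and 764.4, 827.6 and 821.1 in control libraries. What differed was its makeup. Mcm3 made up 22.5%, 22.7% and 22.5% of the sum in labelled knockout libraries, against 17.6%, 18.3% and 18.4% in control libraries, a mean of 22.6% ± 0.136 against 18.1% ± 0.431 (SD, n = 3 each; exact permutation test, two-sided, p = 0.1, the smallest this design allows). The shares of the other ring genes did not overlap between groups either. Mcm2 averaged 20.2% in labelled knockout and 19.2% in control libraries, and Mcm6 23.4% and 26.2%. Mcm4, Mcm5 and Mcm7 were also lower in labelled knockout. The shares sum to 1 whole, so they are not independent, and only that of Mcm3 was tested. A share within a library does not depend on how libraries are scaled to each other. The Mcm3 share was not set against neighbours on the chromosome, where Mcm3 lost its call.

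Most of the proteins that turn the loaded ring into a moving helicase did not pass: of 8 genes, 1 rose, 2 fell and 5 did not. With neighbourhood centring 1 was higher (Dbf4) and 1 lower (Gins3), and Gins1 no longer passed (-0.0097, limma adjusted p = 0.876). Dbf4, the activating partner of the kinase Cdc7, rose to 32.7 ± 0.915 TPM, against 29.2 ± 0.278 TPM in control (log2 fold change 0.16, limma adjusted p = 0.00871), while Cdc7 had a log2 fold change of 0.03 (95% interval -0.12 to 0.18). Of the 4 GINS subunits, which join the helicase, 2 fell. Gins1 had 78.4, 77.1 and 76.8 TPM in labelled knockout libraries, against 84.7, 81.9 and 90.5 TPM in control (-0.14, limma adjusted p = 0.0196). Gins3 had 10.1, 9.14 and 9.11 TPM in labelled knockout libraries, against 11.5, 10.2 and 11.5 TPM in control (-0.21, limma adjusted p = 0.0254). In both genes every labelled knockout library was below every control library, although for Gins3 the nearest values were 10.1 and 10.2 TPM. Gins2 (log2 fold change -0.08), Gins4 (0.07), Cdc45, the third part of the helicase (0.08), and Mcm10, which helps activate it (0.02), did not pass and their groups overlapped.

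Of the 9 polymerase and primase subunits among the members, 5 rose, 1 fell and 3 did not pass. Their median log2 fold change was 0.23. With neighbourhood centring 2 were higher (Pola1 and Pole) and none lower. Over all tested genes 26.7% were called higher, and 23.2% with neighbourhood centring, so 2 of 9 is near the share of all genes. Prim2, the large primase subunit, had 64.1, 65.1 and 60.5 TPM in labelled knockout libraries, against 48.7, 50.3 and 47.7 TPM in control libraries (log2 fold change 0.36, SE 0.0425, limma adjusted p = 9.09e-05). Its catalytic partner Prim1 did not pass, with 65.7, 60.4 and 58.9 TPM in labelled knockout and 62.9, 56.0 and 60.1 TPM in control libraries (0.05, 95% interval -0.08 to 0.17). Thus Prim2 was high in all 3 labelled knockout libraries, and Prim1 overlapped between the groups.

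Polymerase alpha, which extends the primers, also split. Its catalytic subunit Pola1 had 36.5, 35.5 and 35.4 TPM in labelled knockout libraries, against 26.9, 32.1 and 30.5 TPM in control (log2 fold change 0.26, limma adjusted p = 0.00592). Its second subunit Pola2 fell to 47.7 ± 2.19 TPM, against 53.2 ± 1.08 TPM in control (-0.15, limma adjusted p = 0.0156). Neither gene's groups overlapped.

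Polymerase delta, which makes the lagging strand, rose in 2 of its 3 subunits among the members. The catalytic subunit Pold1 had 64.0, 63.9 and 63.9 TPM in labelled knockout libraries, against 51.8, 53.6 and 55.6 TPM in control (log2 fold change 0.25, limma adjusted p = 0.000578). Pold3 had 28.9, 26.1 and 26.4 TPM in labelled knockout libraries, against 20.8, 21.6 and 20.6 TPM in control (0.35, limma adjusted p = 0.000329). Both were higher in every labelled knockout library than in any control library, while Pold2 had a log2 fold change of -0.07 (95% interval -0.18 to 0.03). Pold4, a further subunit that is counted below among the other fork genes, did not pass. It had 24.6 ± 0.982 TPM in labelled knockout and 25.6 ± 2.88 TPM in control libraries (log2 fold change -0.05). The row for Pold4 is a non-coding transcript model of 668 bases.

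Polymerase epsilon, which makes the leading strand, rose in its catalytic subunit but not in its other subunits. Pole had 13.01, 11.606 and 12.8 TPM in labelled knockout libraries, against 9.63, 11.57 and 10.2 TPM in control (log2 fold change 0.23, limma adjusted p = 0.0233). The groups came within rounding of each other, since the lowest labelled knockout library and the highest control library were nearly equal. Pole2 had a log2 fold change of 0.09 (95% interval -0.03 to 0.22) and did not pass. The further subunits Pole3 and Pole4 are counted below among the other fork genes. Pole3 fell to 35.6 ± 3.40 TPM, against 40.8 ± 1.41 TPM in control (-0.20, limma adjusted p = 0.0301). Pole4 did not pass (0.05).

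Of the clamp and its loader, 3 of 6 were lower and 1 higher, but this turned with neighbourhood centring, where 1 was lower (Pcna) and 2 higher (Rfc4, and Rfc1 at 0.13, limma adjusted p = 0.0269). Pcna, the sliding clamp and the most abundant of the 48 members, had 622.2, 637.3 and 606.3 TPM in labelled knockout libraries, against 690.0, 692.5 and 654.5 TPM in control libraries (log2 fold change -0.13, limma adjusted p = 0.0198). Rfc2, a subunit of the complex that opens the clamp, had 61.3, 59.9 and 57.3 TPM in labelled knockout libraries, against 71.0, 69.1 and 72.0 TPM in control (-0.25, SE 0.0396, limma adjusted p = 0.000697). Both were below control in every library. Of the other loader subunits, Rfc3 fell (-0.15, limma adjusted p = 0.0321), Rfc4 rose (0.11, limma adjusted p = 0.0422), a call it kept in 5 of 18 alternatives, and Rfc1 (0.04) and Rfc5 (-0.04) did not pass. Pcna has processed pseudogenes, so some of its reads may be shared with them.

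RPA, which coats single-stranded DNA at the fork, was the one role in which every member moved the same way: all 3 subunits fell, although with neighbourhood centring 1 was lower, Rpa1, and the other two did not pass. Rpa1 had 54.9, 51.5 and 53.7 TPM in labelled knockout libraries, against 55.7, 66.5 and 60.7 TPM in control (log2 fold change -0.18, limma adjusted p = 0.0304). Rpa2 fell to 54.8 ± 0.528 TPM, against 60.8 ± 1.02 TPM in control (-0.15, limma adjusted p = 0.00676). Rpa3 had 121.4, 123.3 and 115.9 TPM in labelled knockout libraries, against 144.7, 135.5 and 130.9 TPM in control (-0.19, limma adjusted p = 0.00695). The groups of none of the 3 overlapped. Relative to the mean, the widest spread was in the control values of Rpa1 (SD 8.91% of the mean).

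The 2 enzymes that finish Okazaki fragments moved apart, and with neighbourhood centring Lig1 kept its call and Fen1 did not. Fen1, the nuclease that trims the flap, had 86.0, 85.2 and 84.5 TPM in labelled knockout libraries, against 91.1, 96.6 and 102.5 TPM in control (log2 fold change -0.18, limma adjusted p = 0.00908). Lig1, the ligase that seals the nick, had 89.4, 87.0 and 87.6 TPM in labelled knockout libraries, against 66.1, 73.3 and 72.6 TPM in control (0.31, limma adjusted p = 0.000366). In control libraries Fen1 was the more abundant of the 2, and in each labelled knockout library Lig1 was.

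In nucleotide supply 3 of 5 genes were lower and 1 higher, and the 2 subunits of ribonucleotide reductase moved apart. Rrm1, the large subunit, had 152.2, 148.5 and 147.7 TPM in labelled knockout libraries, against 130.4, 138.2 and 133.7 TPM in control (log2 fold change 0.16, limma adjusted p = 0.00545). Rrm2, the small subunit whose level is known to follow S phase, had 122.5, 118.3 and 123.0 TPM in labelled knockout libraries, against 144.3, 140.5 and 143.7 TPM in control (-0.23, SE 0.0343, limma adjusted p = 0.000384). The ratio of Rrm2 to Rrm1 TPM was below 1 in all 3 labelled knockout libraries, at 0.805, 0.796 and 0.832, against 1.11, 1.02 and 1.07 in control libraries. It averaged 0.811 ± 0.0187 against 1.07 ± 0.0456 (SD, n = 3 each; exact permutation test, two-sided, p = 0.1, again the smallest possible). Rrm1 reversed to a log2 fold change of -0.11 when set against its neighbours on the chromosome, as described further on.

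**Figure D3:**
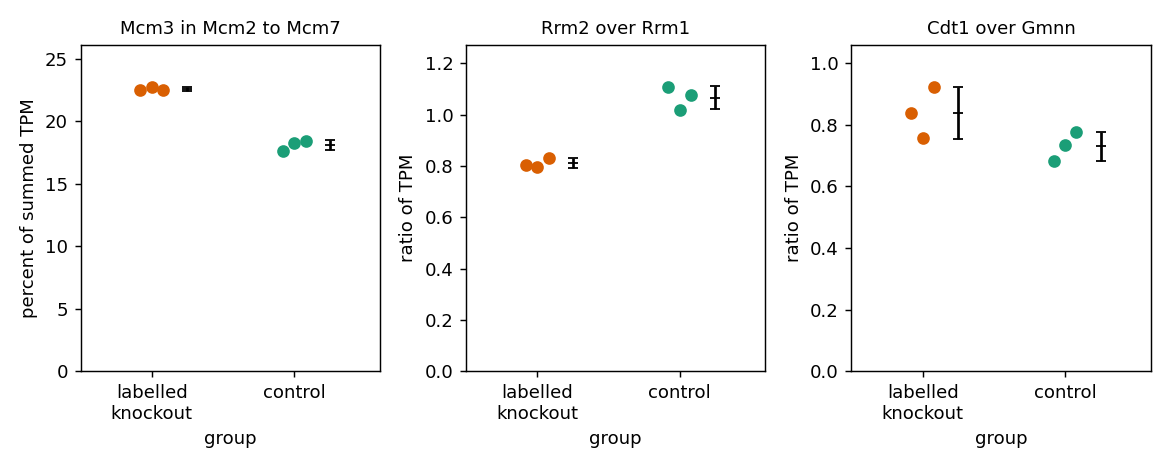
Mcm3 as a percent of the summed TPM of Mcm2 to Mcm7, Rrm2 over Rrm1 and Cdt1 over Gmnn, each axis from 0; points are libraries, labelled knockout left of control, and bars are mean ± SD (n = 3). The Mcm3 share (22.6% against 18.1%) and the Rrm2 over Rrm1 ratio (0.811 against 1.07) do not overlap between groups, and the Cdt1 over Gmnn ratio does.

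Tk1, the kinase that salvages thymidine, had 84.4, 76.7 and 76.0 TPM in labelled knockout libraries, against 100.2, 94.8 and 90.6 TPM in control (log2 fold change -0.27, limma adjusted p = 0.00234), and its groups did not overlap. Tyms, which makes thymidylate, fell to 15.1 ± 0.582 TPM, against 16.7 ± 0.160 TPM in control (-0.14, limma adjusted p = 0.0367). The row for Tyms is a non-coding transcript model of 3801 bases, and Tyms has a pseudogene. Dut, which removes dUTP, did not pass (-0.05, 95% interval -0.16 to 0.06).

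Where a member lies on its chromosome went with how far it moved. Genes on chromosome 7 had a median log2 fold change of 0.24 over 878 tested genes, and 59.2% of them were called higher, whereas medians of the other chromosomes ran from -0.05 to 0.06. All 4 members on chromosome 7 (Pold1, Pold3, Lig1 and Rrm1) rose. With each chromosome's median subtracted in each library, an alternative chosen after the data had been seen, 9 members were called higher and 15 lower (24.3% and 24.8% of all tested genes). None of the 4 on chromosome 7 then passed: Pold3 had a remaining 0.11 (limma adjusted p = 0.0810), Lig1 0.07 (adjusted p = 0.191), Pold1 0.0045 (adjusted p = 0.926) and Rrm1 -0.088 (adjusted p = 0.0542). Of the 44 members on other chromosomes, 10 rose (22.7%) and 17 fell (38.6%), with a median of -0.04. Over the 10379 tested genes there, 23.9% rose and 24.7% fell, with a median of 0.0007, so the share that rose was near that of all genes.

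**Figure D4:**
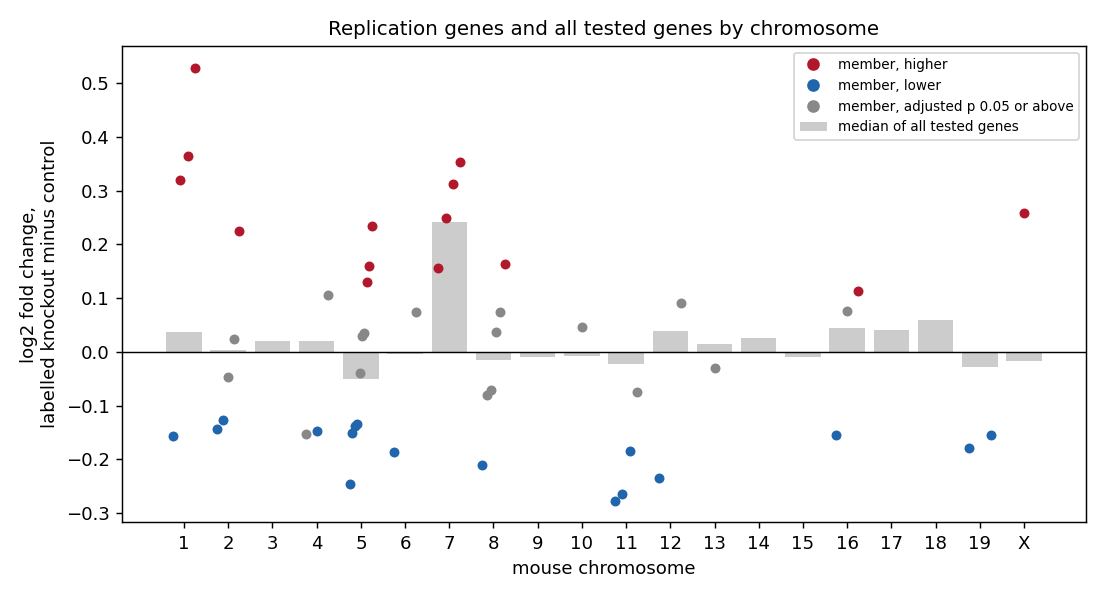
Log2 fold change (vertical axis, labelled knockout minus control) of the 48 members by mouse chromosome (horizontal axis); points are members, coloured by call, and grey bars are the median of all tested genes of that chromosome. The bar of chromosome 7 stands at 0.24, those of the other chromosomes lie between -0.05 and 0.06, and 3 members on chromosome 1 stand far above its bar.

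The same held at a finer scale. For each member the median log2 fold change was taken of the other tested genes whose starts lay within 5 Mb. For 7 members this median was above 0.15 (Orc2, Prim2 and Mcm3 on chromosome 1 and the 4 on chromosome 7), and all 7 rose. It was below -0.15 for 2 members, Mcm7 and Rfc2, both on chromosome 5, and both fell. Of the 39 members between these bounds, 7 rose and 15 fell. Over the 48 members the log2 fold change correlated with the neighbourhood median at Pearson r = 0.72 and Spearman rho = 0.61. This is given as a description, since members that lie near each other share neighbours and all share the same 6 libraries. Neither these counts nor the correlation was taken over all tested genes, so they are not read as particular to the members.

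When the neighbourhood median was subtracted in each library and the genes tested again, 8 of the 14 higher members and 8 of the 17 lower members passed in the same direction, and in all 9 members were called higher and 9 lower (23.2% and 23.4% of all tested genes). This alternative was chosen after the data had been seen. Orc2 had a neighbourhood median of 0.26 and a remaining log2 fold change of 0.26 (limma adjusted p = 0.00137). Prim2 (remaining 0.10, limma adjusted p = 0.108), Mcm3 (0.07, adjusted p = 0.243) and Pold3 (0.11, adjusted p = 0.0586) no longer passed. Pold1, with a remaining -0.020 (limma adjusted p = 0.666), and Mcm7, with 0.037 (adjusted p = 0.415), changed sign without passing. Rrm1 changed sign and passed as lower, at -0.11 (limma adjusted p = 0.0226).

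Other members kept their call against their neighbours. Rrm2 lies among genes with a median of 0.08 and had a log2 fold change of -0.31 against them (limma adjusted p = 9.29e-05). Cdc6 kept -0.21 (limma adjusted p = 0.00571), Tk1 -0.18 (adjusted p = 0.0340), Mcm6 -0.15 (adjusted p = 0.00682) and Pcna -0.15 (adjusted p = 0.0273). Among the higher members Pole kept 0.28 (limma adjusted p = 0.00714), Cdt1 0.20 (adjusted p = 0.00473), Pola1 0.15 (adjusted p = 0.0408) and Lig1 0.12 (adjusted p = 0.0349), although Lig1 did not pass with its whole chromosome centred. Fen1, with a remaining -0.10 (limma adjusted p = 0.0836), Rfc2, with -0.09 (adjusted p = 0.0980), and the RPA subunits Rpa2 (-0.05) and Rpa3 (-0.07) no longer passed, while Rpa1 kept -0.15 (adjusted p = 0.0367).

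**Figure D5:**
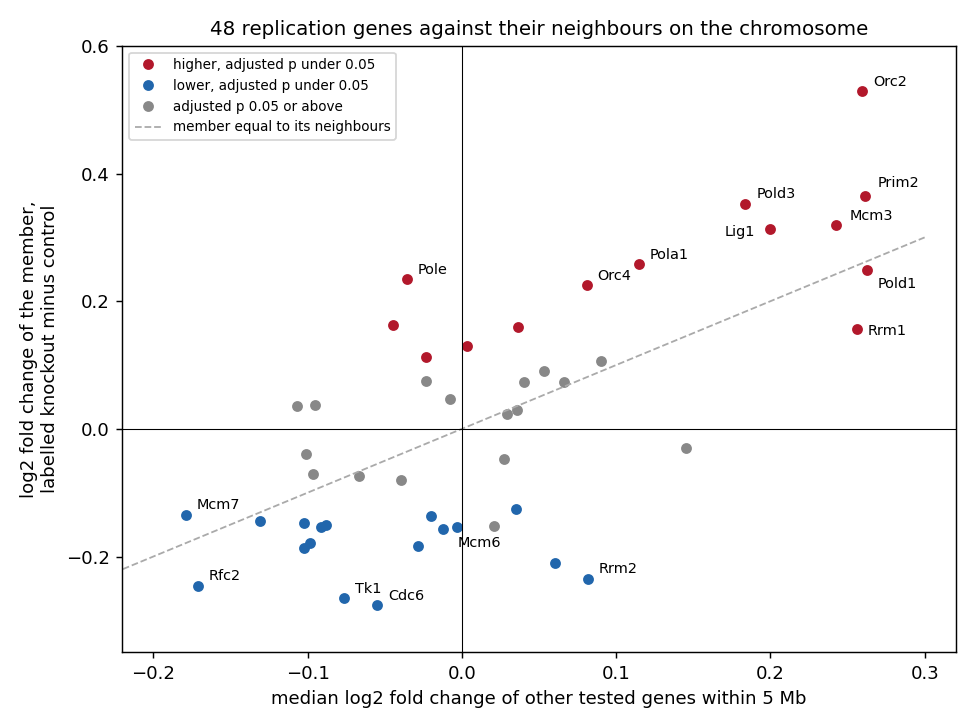
Log2 fold change of each of the 48 members (vertical axis) against the median log2 fold change of the other tested genes within 5 Mb (horizontal axis), both labelled knockout minus control; the dashed line marks a member equal to its neighbours. The 7 members right of 0.15 are all red (higher), with Pold1 and Rrm1 on or below the line, and Rrm2 lies far below it.

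Transcript length also differed between the directions: members that rose had a median length of 3012.5 bases, members that fell 2168 bases and members that did not pass 2121 bases. Across the 48 members, log2 fold change correlated with length at Spearman rho = 0.29, compared with 0.11 over all tested genes, and single libraries of both groups deviated with length, by rho of -0.26 to 0.27 in labelled knockout and -0.41 to 0.44 in control libraries. With each library's length trend removed, 14 of the 14 higher and 16 of the 17 lower members kept their call, and in all 14 were called higher and 18 lower (26.9% and 27.5% of all tested genes). Gins1 was the lower member that lost its call (-0.10, limma adjusted p = 0.0582). Reads of overlapping genes could not be told apart, because the kit does not mark strand and no source used here says whether strand entered the counting. Exons of the member overlapped another gene by more than 10% for 7 members. Among these, Orc2 shared 29.8% of its exon bases with Nif3l1 on the other strand, and Nif3l1 had a mean of 32.1 TPM in labelled knockout and 25.6 TPM in control libraries (log2 fold change 0.31). Rfc2 shared 15.1% with Lat2, which had 125.4 TPM in labelled knockout and 152.1 TPM in control libraries (-0.28), and Fen1 shared 78.8% with an antisense gene. Gins2 shared 67.3% with Gse1 (log2 fold change -0.45). That overlap spans 2758 bases and the listed Gins2 transcript has 1031, so much of it lies outside the measured transcript. Rfc4 shared 12.65% with Eif4a2, which had 84.4 TPM in labelled knockout and 76.8 TPM in control libraries (0.13). Rfc5 shared 10.7% with Wsb2 (-0.26), and Orc1 shared 10.8% with a gene that has no value here. The part of these overlaps in the members' values was not tested.

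In 6 lists of other genes around replication, 22 of 93 tested genes rose and 22 fell, 23.7% each, near the 26.7% and 23.4% of all tested genes, so the counts are given as a description. Of 9 other genes of origin licensing and firing, 4 rose, 2 fell and 3 did not pass (median log2 fold change 0.07), and 2 of them moved further than any of the 48 members. Mcm8, a helicase of DNA repair related to the ring genes, rose to 22.7 ± 0.595 TPM, against 13.7 ± 0.656 TPM in control (log2 fold change 0.69, limma adjusted p = 4.77e-06). Mtbp, a partner in origin firing, rose to 27.4 ± 1.21 TPM, against 17.3 ± 0.414 TPM (0.63, limma adjusted p = 5.93e-06), and Wdhd1, which ties polymerase alpha to the helicase, fell (-0.28, limma adjusted p = 0.00228). Genes within 5 Mb of Mcm8 and of Mtbp had medians of 0.02 and 0.08.

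Of 19 other fork genes, 2 rose, 5 fell and 12 did not pass (median -0.05). The nucleases Exo1 (-0.28, limma adjusted p = 0.00163) and Dna2 (-0.29, adjusted p = 0.00230) and the topoisomerase Top1 (-0.27, adjusted p = 0.00169) fell. Of 10 genes that rebuild chromatin behind the fork, 2 rose, 5 fell and 3 did not pass (median -0.12). Slbp, which binds the stem-loop of histone messages, fell to 34.9 ± 0.895 TPM, against 47.6 ± 2.12 TPM in control (-0.44, limma adjusted p = 4.16e-05), and the histone chaperone Asf1b fell to 65.1 ± 0.906 TPM, against 85.8 ± 5.47 TPM (-0.39, adjusted p = 0.000123). Another histone chaperone, Nasp, rose (0.37, limma adjusted p = 0.000175).

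Of 29 other nucleotide genes, 8 rose, 4 fell and 17 did not pass (median 0.05). The 3 with the smallest adjusted p act on deoxynucleotides or their precursors. Samhd1, which breaks down deoxynucleotide triphosphates, fell to 41.1 ± 1.30 TPM, against 67.5 ± 3.23 TPM in control (log2 fold change -0.70, limma adjusted p = 2.37e-06). Tk2, the mitochondrial thymidine kinase, rose to 19.1 ± 0.526 TPM, against 12.2 ± 0.795 TPM (0.60, limma adjusted p = 2.19e-05), and Dck, the deoxycytidine kinase, fell (-0.34, limma adjusted p = 0.000349). Thus Tk2 and the cytosolic kinase Tk1 changed in opposite directions, although the row for Tk2 is a non-coding transcript model of 2317 bases.

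Of 16 genes of the E2F and RB circuit, 2 rose, 5 fell and 9 did not pass (median -0.08). E2f2, an activator, fell to 12.9 ± 0.358 TPM, against 19.6 ± 1.27 TPM in control (log2 fold change -0.56, limma adjusted p = 3.40e-05). E2f7, a repressor of the same targets, fell to 2.81 ± 0.217 TPM, against 5.18 ± 0.0566 TPM (-0.70, limma adjusted p = 4.47e-05), and Mybl2, a partner in late cell cycle transcription, fell as well (-0.36, limma adjusted p = 0.000146). Of 10 replication checkpoint genes, 4 rose, 1 fell and 5 did not pass (median 0.13). The gene that fell was Cdc25a, the phosphatase that removes the inhibitory mark from cyclin-dependent kinases, at 13.6 ± 0.0429 TPM against 19.2 ± 0.802 TPM in control (-0.48, limma adjusted p = 3.56e-05), while the checkpoint clamp gene Rad1 (0.24, limma adjusted p = 0.00103) and its loader Rad17 (0.24, adjusted p = 0.00234) rose.

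Most markers of the G2 and M phases fell, where 23.4% of all tested genes were called lower and 26.7% higher. Of 20 such markers, 14 fell, 1 rose (Ndc80, a kinetochore gene) and 5 did not pass, with a median log2 fold change of -0.35, and their summed TPM was 1234 to 1264 in labelled knockout libraries, against 1546 to 1608 in control libraries. Cdc20, an activator of the anaphase-promoting complex, had the smallest adjusted p of them, at 49.1 ± 0.642 TPM in labelled knockout and 85.9 ± 1.65 TPM in control libraries (-0.79, limma adjusted p = 2.04e-07). Mki67, the usual proliferation marker, overlapped between groups, at 135.1, 128.7 and 136.1 TPM in labelled knockout libraries and 118.8, 145.8 and 138.0 TPM in control libraries. In bulk samples, fewer cells in a phase and less RNA per cell cannot be told apart, and the part of the cell cycle mix in the members' values was not tested.

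How often a called member passed differed between members, while no called member changed sign under the 15 choices that follow. Under 15 other choices of pseudocount, filter, scaling, test and libraries, which include leaving out each library in turn, 10 of the 14 higher members (Orc2, Orc4, Mcm3, Dbf4, Pola1, Prim2, Pold1, Pold3, Lig1 and Rrm1) and 7 of the 17 lower members (Cdc6, Rfc2, Rpa2, Rpa3, Fen1, Rrm2 and Tk1) passed each time. Under those and the 3 added later (chromosome centred, length trend removed and neighbourhood centred), Orc2, Dbf4, Pola1, Cdc6, Rrm2 and Tk1 passed in the same direction throughout. With 1 library left out, 11 to 13 members were called higher and 9 to 14 lower. The lower count was 9 without labelled knockout replicate 2 (2252 of 11164 over all tested genes) and 10 without control replicate 3 (2228 of 11109). It was 11 without labelled knockout replicate 3 (2397 of 11153) or control replicate 2 (2294 of 11114). In each of these fits the lower share of members was near that of all tested genes. It was 13 without labelled knockout replicate 1 (2271 of 11145) and 14 without control replicate 1 (2585 of 11131), above the share of all tested genes.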

How the data were processed

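Polyadenylated RNA of RAW264.7 cells was sequenced with an NEBNext Ultra RNA kit, per the labels' protocols. Tools in the submitters' processing notes, which give no roles, are STAR 2.7.5a, bcl2fastq, DESeq2 and HOMER 4.11.1, with build mm10. The authors deposited a TPM table of 1 transcript per symbol, and a second table of log2 values stabilized for variance with their own log2 fold changes and p-values (neither printed here), per the file headers. TPM multiplied by length gave whole reads within 0.1, used for depth and 1 alternative. Genes with TPM of at least 1 in at least 3 of 6 libraries were tested with limma 3.58.1 (R 4.3.3) on log2(TPM + 1) with a mean-variance trend, which was tested on simulated data. Ratios within a library were tested by exact permutation (scipy 1.17.1). Libraries of the same replicate number did not deviate together. Values in every library are given for called members among the 8 highest and 8 lowest fold changes and for the most abundant member of each role, and elsewhere where a result turns on them. From each list of other genes up to 3 with the smallest adjusted p are named; others named were chosen after their values were seen. Members and lists were chosen with earlier results of these data known. Overlaps used GENCODE M21. Alternatives changed the pseudocount (0.1), the filter (none, or 5 TPM), the scaling, the test and the libraries.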

Additional observations from a re-analysis of the deposited data

How the results depend on the processing

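With 14 members higher and 17 lower as the values reported, centring each chromosome left 9 higher, and centring each neighbourhood left 9 higher and 9 lower; both were chosen after seeing the data. With 1 library left out the counts were 11 to 13 higher and 9 to 14 lower, over all genes 4700 to 5354, and the median member log2 fold change ran from -0.0207 to 0.0145; upper-quartile scaling moved it to -0.0236 and chromosome centring to -0.0209. Rrm1 reversed to -0.088 with chromosome centring and to -0.11 with neighbourhood centring, where Pold1 reached -0.020 and Mcm7 0.037; the cause was not tested. No other member that passed as reported changed sign under the 18 alternatives, but some that passed only elsewhere did: Rfc1 was 0.13 with neighbourhood centring and -0.0051 with the length trend removed, and Mcm5 -0.091 with upper-quartile scaling and 0.035 with neighbourhood centring. With a replicate block 12 members were higher and 16 lower and 5297 genes were called; the replicate numbers did not pair the libraries, since correlations of same-numbered deviations were -0.013, -0.058 and 0.003. The 3 ratios kept their direction under the 8 alternatives run on them (recovered reads, each library left out, and the block; no centring was run), with differences with 1 library left out of 4.22 to 4.63 percentage points for the Mcm3 share, 0.0658 to 0.149 for Cdt1 over Gmnn and -0.279 to -0.235 for Rrm2 over Rrm1, and paired exact p of 0.25. Of the 18 genes named by the smallest adjusted p in the 6 other replication lists, 16 kept their call throughout; Exo1 and Top1 lost it with neighbourhood centring. Members had 315 to 13600 recovered reads a library, and 95% intervals of the members that did not pass reach -0.30 and 0.22.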
